A study of Mus musculus with 12 samples.

Results

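The semaphorin, ephrin and netrin guidance families of mouse tongue epithelium were examined by RNA-seq after repeated diphtheria toxin (DT) or phosphate-buffered saline (PBS) injections. The members were the genes whose symbols begin with Sema, Plxn, Efn, Eph or Ntn followed by a family number or letter, together with Nrp1, Nrp2, Unc5a to Unc5d, Dcc, Neo1, Rgma and Rgmb. The rule found 68 genes among the 49164 with counts, and 49 of them passed a filter on low counts and entered the test, out of 14231 genes tested. The 68 were 20 semaphorins, 9 plexins, 2 neuropilins, 5 class A ephrins, 9 EphA receptors, 3 class B ephrins, 5 EphB receptors, 4 netrins, 6 netrin receptors of the Unc5, Dcc and neogenin type, 2 repulsive guidance molecules and 3 antisense transcripts of Plxna4 that share its symbol. All 12 samples came from Langerin-DTR mice, which carry a diphtheria toxin receptor in the cells that make Langerin, the product of Cd207 and the defining protein of Langerhans cells, the dendritic cells of stratified epithelia. There were 6 samples of mice given DT, which kills cells carrying the receptor, and 6 of mice given PBS. In both groups the injections ran from 2 weeks of age into adulthood, at 2 a week, and the epithelium was lifted from the tongue with dispase and digested with collagenase before RNA extraction. No group without the receptor was analysed here, the exact age at sampling is not given in the sources used here, and the labels do not say whether each sample is 1 mouse, so p-values measure the spread between these samples. The series asks, by its title, about Langerhans cells and the innervation of the oral mucosa.

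Guidance molecules were first known for steering growing axons, and all of these families also act between epithelial, vascular and immune cells. Semaphorins are secreted or membrane-bound ligands of plexins, and most class 3 semaphorins need a neuropilin as co-receptor. Ephrins are cell-surface ligands, class A held by a lipid anchor and class B spanning the membrane, and they signal on contact in both directions with Eph receptor tyrosine kinases, which in stratified epithelia take part in keratinocyte adhesion and differentiation. Netrins are laminin-related secreted proteins that attract axons through Dcc or neogenin and repel them through Unc5 receptors. Repulsive guidance molecules bind neogenin and act as co-receptors for bone morphogenetic proteins.

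Cd207 had 4 counts in all DT samples together, with at most 2 in any of them, against 429 in all PBS samples together, with 53 to 92 in each. Of 8 Langerhans cell markers, all tested, Cd207 and Mfge8 fell, while Cd1d1, Ptprc and Itgax had log2 fold changes of 0.64, 0.28 and 0.18, and H2-Ab1, Cd74 and Epcam of -0.13, -0.08 and -0.03, none of them called. Apart from Cd207 these genes are also known from other leukocytes or from epithelial cells. Counts per sample totalled 26181070 to 34333949 in DT and 21226436 to 30282813 in PBS, and a floor of 3 counts corresponded to 0.0813 to 0.143 CPM, the counts scaled to a common library size. The first principal component of log2 CPM did not separate the treatments. DT 4, DT 5, DT 6 and PBS 1 to PBS 4 lay on one side of 0, and DT 1, DT 2, DT 3, PBS 5 and PBS 6 on the other. The samples held high levels of keratinocyte keratins, as their label says. Most markers of other cell types were low, with exceptions such as the fibroblast gene Dcn, at 290 CPM in DT and 295 CPM in PBS. Of 12 endothelial markers 4 passed the filter, and the sum of all 12 was 8.66 to 12.9 CPM in DT and 8.91 to 16.5 CPM in PBS. Of the 4, Tie1 and Pecam1 had log2 fold changes of -1.07 and -0.67, and Vwf and Flt1 of 0.29 and 0.09. By the edgeR test described below none of the 4 was called (adjusted p = 0.0553 for Tie1). By DESeq2, the second tool, Tie1 was called (adjusted p = 0.0129). Of 10 neuronal markers only Tubb3 passed the filter, with a log2 fold change of -0.24, not called (adjusted p = 0.250 by edgeR). The sum of all 10, nearly all of it Tubb3, was 53.2 to 75.9 CPM in DT and 62.3 to 93.2 CPM in PBS. The neuronal genes Gap43 and Elavl4 had 1 count each over the 12 samples. Of 8 Schwann cell markers 4 passed the filter. The sum of all 8, dominated by Erbb3, was 241 to 268 CPM in DT and 231 to 296 CPM in PBS. In bulk samples of this kind, fewer cells of a type and less RNA per cell cannot be told apart.

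No member of the guidance families passed the test between DT and PBS. Of the 49 members tested, 0 had an adjusted p under 0.05, the threshold for a call, by edgeR's quasi-likelihood test with Benjamini-Hochberg adjustment over all genes, where 1.30% of all genes tested did (185 of 14231). At an unadjusted p under 0.05 there were 10 of 49 members (20.4%), against 15.4% of all genes. Of these, 8 were higher in DT, where 7.43% of all genes were, and 2 were lower, where 7.94% were. In none of the 49 did the DT and PBS samples fall into ranges that do not overlap, which 2.21% of all genes did. The log2 fold change (DT over PBS) was above 0 in 29 members and below 0 in 20, with a median of 0.05, against 0.01 over all genes tested. The median size of the change, regardless of sign, was 0.108 on the log2 scale in members and 0.0951 over all genes. For 40 of the 49 members the 95% confidence interval of the change lay within 1.5-fold in either direction. The same held for 11588 of the 14231 genes tested. Changes larger than that lay outside the intervals of most members. Scaling by library size alone moved the median of all genes to 0.11 and turned the sign of 11 of the members named below from just below 0 to just above it. DESeq2's Wald test, run as a second tool, called 1 of 50 members, Ntn4, where it called 3.80% of all genes.

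**Figure D1:**
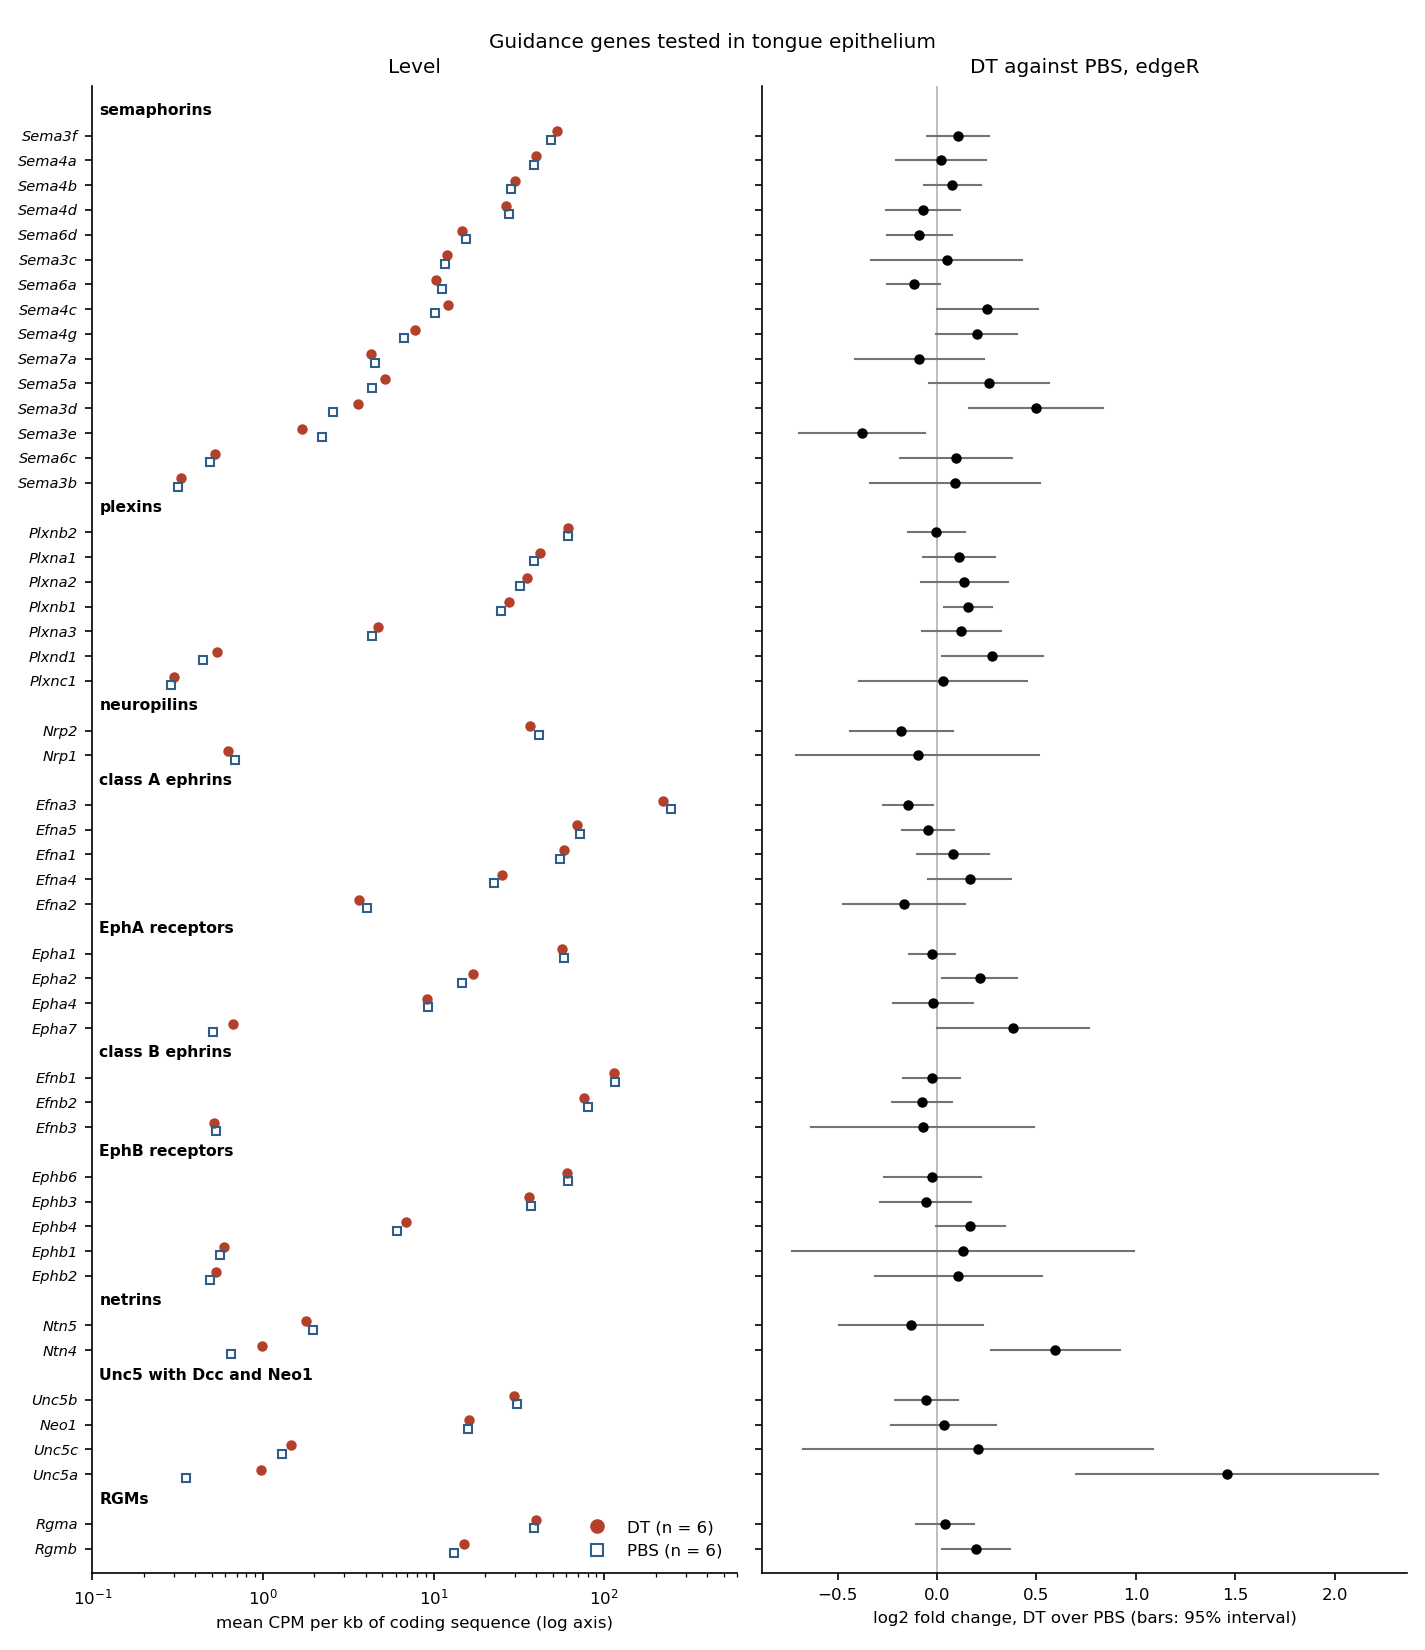
Level and difference of each of the 49 tested guidance genes, by family. The left axis is the mean level per kilobase of coding sequence in CPM on a log scale, DT above PBS for each gene, and the right axis is the log2 fold change, DT over PBS, with its 95% confidence interval; the levels of both groups lie close together for nearly every gene, and Unc5a stands farthest to the right at 1.46.

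Levels of the 49 tested members ran from 0.290 to 245 CPM per kilobase of coding sequence in PBS. On this scale, on which genes can be set side by side, the most abundant member was the class A ephrin Efna3 at 221 CPM per kb in DT and 245 CPM per kb in PBS. The class B ephrins Efnb1 (114 in DT, 116 in PBS) and Efnb2 (76.3 in DT, 80.4 in PBS) came next, in CPM per kb. The most abundant receptors on this scale were Plxnb2 (61.4 in DT, 61.5 in PBS) and Ephb6 (60.2 in DT, 61.2 in PBS), and the most abundant semaphorin was Sema3f (52.6 in DT, 48.9 in PBS). Plxnb2 and Ephb6 differed from each other by less than their spread over samples. At the other end stood Plxnc1 (0.301 in DT, 0.290 in PBS), Sema3b (0.332 in DT, 0.316 in PBS) and, in PBS, Unc5a (0.977 in DT, 0.352 in PBS). The tongue epithelium thus held several abundant ephrins and Eph receptors, and much less of the tested netrins and of Unc5a. Other ephrins and Eph receptors were as low, such as Efnb3 (0.514 in DT, 0.532 in PBS) and Epha7 (0.663 in DT, 0.507 in PBS). The netrin receptors Unc5b (29.52 in DT, 30.65 in PBS) and Neo1 (16.2 in DT, 15.8 in PBS) stood higher.

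Among the semaphorins, 15 of 20 entered the test, 0 passed it, and the median log2 fold change was 0.08, with 10 above 0 and 5 below. In the secreted class 3, most of whose members act through neuropilins and class A plexins, Sema3d and Sema3e lay on opposite sides of 0. Sema3d (ENSMUSG00000040254) had 6.90, 8.66, 6.24, 8.23, 8.98 and 11.4 CPM in DT 1 to DT 6, against 6.56, 7.54, 5.78, 5.96, 3.67 and 6.44 CPM in PBS 1 to PBS 6. Most DT samples stood above most PBS samples, and the ranges overlapped. This gave a log2 fold change of 0.50 (SE 0.16, adjusted p = 0.133). Sema3e (ENSMUSG00000063531), which binds plexin D1 without a neuropilin, had 2.81, 3.93, 3.29, 3.99, 4.30 and 5.31 CPM in DT 1 to DT 6, against 6.47, 6.14, 4.72, 5.12, 4.32 and 4.24 CPM in PBS 1 to PBS 6. The lowest 4 samples were all DT, while DT 6 stood above PBS 3 to PBS 6. Its log2 fold change was -0.38 (adjusted p = 0.229). Sema3f, the most abundant class 3 member, averaged 124 ± 11.7 CPM in DT and 115 ± 10.6 CPM in PBS (SD, n = 6 each, log2 fold change 0.11, adjusted p = 0.542). Sema3c averaged 26.8 ± 7.95 CPM in DT and 26.1 ± 6.01 CPM in PBS.

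In the 10 tested semaphorins of classes 4 to 7, which are membrane-bound, log2 fold changes ran from -0.12 to 0.26. Sema4a averaged 90.2 ± 13.6 CPM in DT and 88.8 ± 12.9 CPM in PBS, with a log2 fold change of 0.02. Sema4b, at 74.5 ± 6.64 CPM in DT and 70.6 ± 5.35 CPM in PBS, had a log2 fold change of 0.08. Sema4d, the ligand of plexin B1, averaged 68.3 ± 8.61 CPM in DT and 71.6 ± 7.52 CPM in PBS. Sema4c, a ligand of plexin B2, averaged 30.3 ± 5.88 CPM in DT and 25.5 ± 2.88 CPM in PBS (log2 fold change 0.25, adjusted p = 0.329). Sema4g averaged 19.4 ± 2.84 CPM in DT and 16.9 ± 1.70 CPM in PBS. Sema6a and Sema6d, transmembrane ligands of class A plexins, had log2 fold changes of -0.12 and -0.09. Sema5a, a transmembrane semaphorin that binds plexin A1 and plexin A3 in mouse, averaged 16.8 ± 4.29 CPM in DT and 14.1 ± 1.76 CPM in PBS (log2 fold change 0.26, adjusted p = 0.402). Sema7a, which is held by a lipid anchor and binds plexin C1, had one of -0.09.

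Of the plexins, the semaphorin receptors, 7 of 9 entered the test and 0 passed it. Their log2 fold changes were above 0 in 6 and below 0 in 1, with a median of 0.12. Plxnb1 (ENSMUSG00000053646), the receptor of Sema4d, had 184, 190, 160, 183, 183 and 160 CPM in DT 1 to DT 6, against 167, 153, 158, 151, 160 and 162 CPM in PBS 1 to PBS 6. In this gene 4 DT samples stood above every PBS sample, and DT 3 and DT 6 lay among the PBS samples. Plxnb1 had a log2 fold change of 0.16 (SE 0.06, adjusted p = 0.192) and was called only when counts were scaled by library size alone (adjusted p = 0.0377). Plxnd1, the receptor of Sema3e, averaged 3.08 ± 0.418 CPM in DT and 2.55 ± 0.313 CPM in PBS (log2 fold change 0.28, adjusted p = 0.266). Plxnb2, the plexin of highest level, averaged 339 ± 25.2 CPM in DT and 340 ± 29.7 CPM in PBS, with an interval of the log2 fold change of -0.15 to 0.14. Plxna1 and Plxna2, receptors that pair with neuropilins for class 3 semaphorins, had log2 fold changes of 0.11 and 0.14. Among the neuropilins, Nrp2 averaged 102 ± 15.9 CPM in DT and 116 ± 22.1 CPM in PBS (log2 fold change -0.18, adjusted p = 0.520). Nrp1, which is also abundant in vessels, averaged 1.73 ± 0.675 CPM in DT and 1.89 ± 0.765 CPM in PBS, and the sign of its difference turned with the scaling and with the sample left out.

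All 5 class A ephrins and all 3 class B ephrins entered the test and 0 passed it. Efna3 (ENSMUSG00000028039) had 166, 151, 156, 154, 147 and 142 CPM in DT 1 to DT 6, against 171, 167, 161, 173, 190 and 152 CPM in PBS 1 to PBS 6. Most DT samples stood below most PBS samples, but PBS 6 lay below DT 1, DT 3 and DT 4. Its change was -0.15 on the log2 scale, within an interval of -0.27 to -0.02 (SE 0.06, adjusted p = 0.233). Efna5 averaged 47.5 ± 3.17 CPM in DT and 49.0 ± 3.62 CPM in PBS, and Efna1, a ligand of EphA2, averaged 35.8 ± 2.85 CPM in DT and 33.8 ± 4.87 CPM in PBS. Efnb1 and Efnb2 differed by -0.03 and -0.08 on the log2 scale, with intervals of -0.17 to 0.12 and -0.22 to 0.07. Efna4 and Efna2 had log2 fold changes of 0.16 and -0.17. Efnb3, the ephrin of lowest level per kb, averaged 0.524 ± 0.124 CPM in DT and 0.542 ± 0.230 CPM in PBS.

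Of the Eph receptors, 4 of 9 in class A and 5 of 5 in class B entered the test, and 0 passed it. Epha2 (ENSMUSG00000006445), which in human keratinocytes takes part in differentiation on contact with ephrin A1, had 54.8, 58.0, 54.1, 45.2, 45.4 and 43.2 CPM in DT 1 to DT 6, against 43.1, 34.6, 46.0, 41.8, 45.5 and 48.0 CPM in PBS 1 to PBS 6. DT 1, DT 2 and DT 3 stood above every PBS sample, and the other DT samples lay among the PBS samples. This gave a log2 fold change of 0.21 (SE 0.09, adjusted p = 0.251). Epha1, the class A receptor of highest level, averaged 167 ± 8.45 CPM in DT and 170 ± 9.97 CPM in PBS, with an interval of -0.14 to 0.09 on the log2 scale. Epha7 averaged 1.99 ± 0.442 CPM in DT and 1.52 ± 0.329 CPM in PBS (log2 fold change 0.38, adjusted p = 0.322). Among the class B receptors, Ephb6, which lacks kinase activity, averaged 183 ± 30.3 CPM in DT and 186 ± 29.9 CPM in PBS. Ephb3 averaged 107 ± 16.7 CPM in DT and 111 ± 16.4 CPM in PBS, and Ephb4, the receptor of ephrin B2, averaged 20.4 ± 2.55 CPM in DT and 18.2 ± 1.40 CPM in PBS (log2 fold change 0.17, adjusted p = 0.343).

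The members with the smallest p-values were in the netrin system: the receptor Unc5a and the ligand Ntn4. Their promoters are shown because they carried the largest differences between DT and PBS. Each is the 250 bases before the gene's start, 5′ to 3′ on the gene's strand, from RefSeq on build GRCm38.p6, which is not the build of the counts (GRCm39). Unc5a lies at chr13:54949161-54949410 on the plus strand and Ntn4 at chr10:93640799-93641048 on the plus strand. Capitals mark GGGCGG, the GC box, or its reverse complement, with overlapping copies counted.
Unc5a: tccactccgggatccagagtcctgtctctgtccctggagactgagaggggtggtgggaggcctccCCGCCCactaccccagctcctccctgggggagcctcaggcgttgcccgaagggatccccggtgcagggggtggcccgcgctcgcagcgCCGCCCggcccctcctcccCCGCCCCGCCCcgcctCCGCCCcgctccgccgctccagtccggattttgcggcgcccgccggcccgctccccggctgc
Ntn4: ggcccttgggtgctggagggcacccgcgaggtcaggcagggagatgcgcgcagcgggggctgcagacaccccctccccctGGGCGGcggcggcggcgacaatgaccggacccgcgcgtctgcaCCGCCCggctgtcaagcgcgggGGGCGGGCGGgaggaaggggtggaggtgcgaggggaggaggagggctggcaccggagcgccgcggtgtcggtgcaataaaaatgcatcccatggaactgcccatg

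Both promoters are rich in G and C, at 76.8% for Unc5a and 73.2% for Ntn4. The GC box was found 5 times in the Unc5a window and 4 times in the Ntn4 window, on either strand, and 32.7% of 32851 promoters of the same length held it. TATAAA was in neither window and in 12.4% of promoters, CACGTG in neither and in 6.02%, and TGACTCA in neither and in 4.46%. These matches describe the letters of the windows and nothing more.

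Unc5a (ENSMUSG00000025876), a receptor through which netrins repel axons, had 1.53, 3.61, 3.10, 2.21, 2.98 and 2.36 CPM in DT 1 to DT 6, against 0.856, 0.921, 1.13, 1.72, 0.0382 and 1.02 CPM in PBS 1 to PBS 6. In 5 of 6 DT samples it stood above every PBS sample, while DT 1 lay below PBS 4, and PBS 5 held 1 count, under the floor of 3. DT over PBS was 1.46 on the log2 scale (SE 0.36; 95% interval 0.70 to 2.22), with an adjusted p of 0.0569 by edgeR's quasi-likelihood test, just over the threshold. Leaving out DT 1, PBS 4 or PBS 5 gave adjusted p-values of 0.0379, 0.0478 and 0.0284, fits in which 1.84%, 0.801% and 0.990% of all genes were called, and other samples left out raised it to at most 0.128. With no filter on low counts the adjusted p was 0.00588, where 0.744% of all genes were called. DESeq2 gave an adjusted p of 0.061, and edgeR with the replicate number as a block gave 0.205, and neither called it. Unc5a was a transcript of low level in every sample, at 43 to 103 counts in DT and 1 to 47 counts in PBS.

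Ntn4 (ENSMUSG00000020019), a netrin of basement membranes that binds laminins, had 1.78, 1.96, 1.86, 1.41, 2.15 and 1.98 CPM in DT 1 to DT 6, against 1.38, 0.965, 1.40, 1.50, 1.07 and 1.05 CPM in PBS 1 to PBS 6. All DT samples but DT 4 stood above every PBS sample. Its difference was 0.60 on the log2 scale (SE 0.15; 95% interval 0.27 to 0.92), with an adjusted p of 0.0673 by edgeR and 0.0297 by DESeq2. The other tested netrin, Ntn5, averaged 2.42 ± 0.355 CPM in DT and 2.64 ± 0.664 CPM in PBS. Among the receptors, Unc5b was by far the most abundant of the Unc5 genes and is known from vessels as well as neurons. Unc5b averaged 83.7 ± 5.51 CPM in DT and 86.9 ± 10.2 CPM in PBS, with an interval of -0.21 to 0.10 on the log2 scale. Neo1, the neogenin gene, averaged 72.4 ± 15.3 CPM in DT and 70.9 ± 10.4 CPM in PBS, and Unc5c averaged 4.14 ± 2.81 CPM in DT and 3.70 ± 2.02 CPM in PBS. The neogenin ligands were Rgma, at 54.1 ± 4.79 CPM in DT and 52.6 ± 4.04 CPM in PBS, and Rgmb, at 19.8 ± 1.79 CPM in DT and 17.3 ± 1.83 CPM in PBS (log2 fold change 0.20, adjusted p = 0.239).

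**Figure D2:**
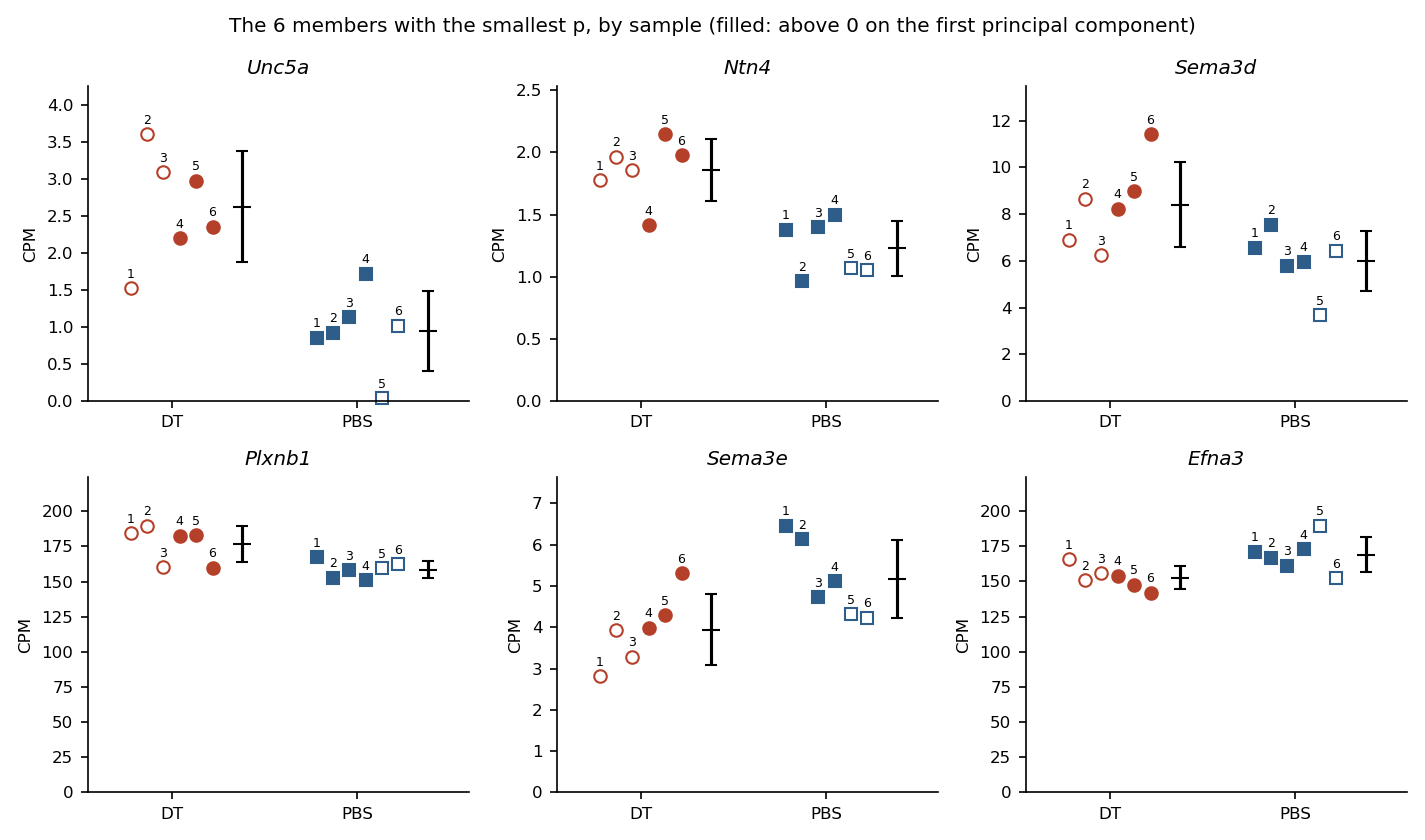
CPM of the guidance genes with the smallest p-values in each of the 12 samples, 1 point a sample, DT left of PBS, with the mean and SD of the 6 samples of each group. Unc5a lies between 1.53 and 3.61 CPM in DT and at or below 1.72 CPM in PBS, and the groups overlap in every gene plotted.

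The 19 members that did not enter the test had at most 119 counts over the 12 samples and at most 25 in any sample. Summed over 6 samples each, Epha3 had 73 counts in DT and 46 in PBS, Epha10 had 32 in DT and 24 in PBS, and Sema6b had 23 in DT and 19 in PBS. Ntn1, the founding netrin, had 15 counts in DT and 17 in PBS, and its receptor Dcc had 1 in DT and 1 in PBS. Sema3a, the class 3 semaphorin best known for repelling sensory axons, had 12 counts in DT and 7 in PBS. Ntn3 had 14 counts in DT and 11 in PBS. Plxna4, a neuronal receptor for class 3 semaphorins, had 21 in DT and 14 in PBS, and its antisense transcripts Plxna4os1, Plxna4os2 and Plxna4os3 had 2 counts in all, both of Plxna4os1. Whether the counting used strand is not given in the sources used here, so reads of Plxna4 and of its antisense transcripts cannot be told apart. The remaining members, Sema3g, Sema4f, Sema5b, Plxnb3, Epha5, Epha6, Epha8 and Unc5d, had 0 to 12 counts in either group. When the filter was dropped, 17 of the 19 could be tested by edgeR and 0 were called, the smallest unadjusted p being 0.122, so 0 also had one under 0.05.

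A split that the labels do not explain ran through the members within the DT group. In 14 of 49 members every one of DT 4, DT 5 and DT 6 lay above every one of DT 1, DT 2 and DT 3, as in 21.3% of all genes tested, and in 10 of 49 all lay below, as in 19.5% of all genes. These are the sides of the first component, which was computed from the same counts, so the shares are a description. Those above were Sema3c, Sema3e, Sema5a, Plxna1, Plxna2, Plxnd1, Nrp1, Nrp2, Efnb2, Ephb1, Ephb2, Ephb4, Neo1 and Unc5c. Those below were Sema4a, Sema4d, Sema4g, Sema7a, Plxna3, Plxnb2, Plxnc1, Epha2, Ephb3 and Ephb6. Semaphorins, plexins and EphB receptors thus stood in both sets. Of the semaphorins, the first set held Sema5a and 2 of the 5 tested of class 3. The second held Sema7a and 3 of the 5 tested of class 4. The neuropilins and neogenin were in the first. On the same component PBS 1 to PBS 4 stood apart from PBS 5 and PBS 6, and 2 of the 14, Sema3e and Sema5a, were also higher in each of PBS 1 to PBS 4 than in PBS 5 and PBS 6. These were 2 of the 49 members, where 7.08% of all genes showed both splits. In the other direction 6 of the 10 were also lower in each of PBS 1 to PBS 4 than in PBS 5 and PBS 6. They were Sema4a, Sema4d, Sema7a, Plxnb2, Ephb3 and Ephb6. These made 6 of the 49 members (12.2%), where 8.05% of all genes showed both splits. Over all genes tested, 1145 of the 2780 with the DT split in this direction showed both. In the first direction 1008 of 3033 did.

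Ephb1, a receptor of class B ephrins, had 0.569, 0.596 and 0.659 CPM in DT 1 to DT 3 and 3.51, 2.09 and 3.06 CPM in DT 4 to DT 6, while the PBS samples ran from 1.08 to 2.06 CPM. The DT samples thus lay on both sides of the whole PBS range. Unc5c had 1.96, 2.63 and 1.24 CPM in DT 1 to DT 3 and 8.48, 4.09 and 6.42 CPM in DT 4 to DT 6, against 1.59 to 7.15 CPM in PBS. Neo1 had 59.1, 61.8 and 56.6 CPM in DT 1 to DT 3 and 91.3, 77.5 and 88.2 CPM in DT 4 to DT 6, against 61.2 to 89.6 CPM in PBS. Sema7a ran the other way, with 10.1, 10.8 and 10.3 CPM in DT 1 to DT 3 and 6.67, 6.83 and 6.85 CPM in DT 4 to DT 6, against 7.41 to 12.4 CPM in PBS. For these genes the means of DT and PBS were close although single samples differed by more than 1.5-fold.

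**Figure D3:**
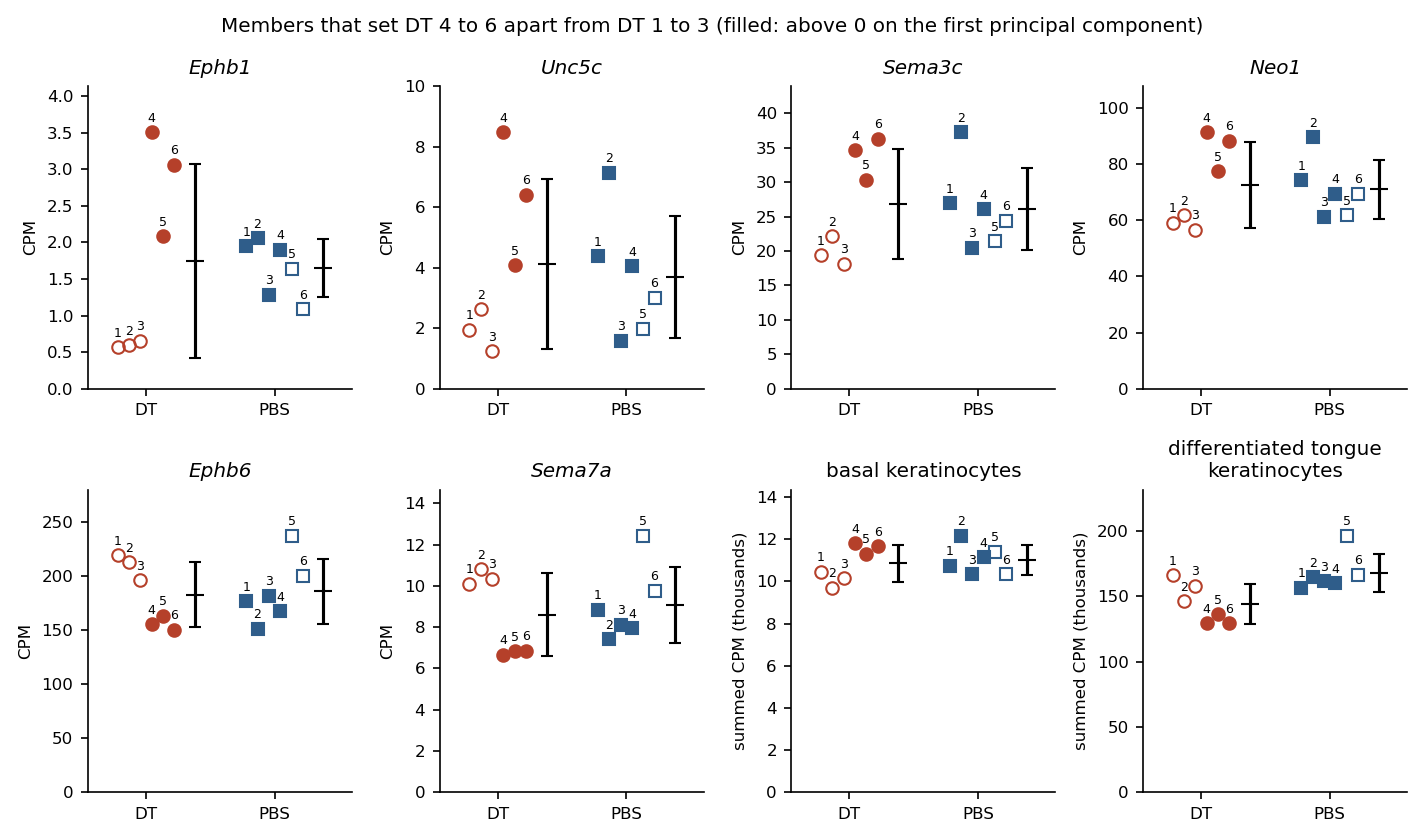
CPM of guidance genes that separate DT 1 to DT 3 from DT 4 to DT 6, with the summed CPM of the basal and differentiated keratinocyte markers in the same samples, 1 point a sample, DT left of PBS. Ephb1 is at 0.659 CPM or less in DT 1 to DT 3 and at 2.09 CPM or more in DT 4 to DT 6.

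Keratinocyte marker sums differed between the same DT samples. The summed level of 8 basal keratinocyte markers, all of which entered the test, was 9709 to 10450 CPM in DT 1 to DT 3 and 11320 to 11820 CPM in DT 4 to DT 6, against 10330 to 12160 CPM in PBS. Of the 8 genes, 6 were higher in every one of DT 4 to DT 6 than in DT 1 to DT 3, and Krt14, which had the highest CPM of the list, and Itgb4 were not. The sum of 10 markers of differentiated tongue keratinocytes, again all tested, was 146100 to 165800 CPM in DT 1 to DT 3 and 129100 to 136000 CPM in DT 4 to DT 6, against 156300 to 196100 CPM in PBS. Of the 10 genes, 5 were lower in every one of DT 4 to DT 6, and Rptn, Krt78, Sbsn, Ivl and Krt4 were not. Of these 10 markers Rptn and Krt78 fell in DT by the test across all samples, with log2 fold changes of -0.48 and -0.37. Of 10 fibroblast markers 7 were tested. The sum of all 10, mostly Dcn, was 290 to 300 CPM in DT 1 to DT 3 and 330 to 356 CPM in DT 4 to DT 6, against 285 to 372 CPM in PBS. Dcn alone of the 7 was higher in every one of DT 4 to DT 6, and the collagen genes Col1a1, Col3a1 and Col6a1 had log2 fold changes of -0.93, -0.89 and -0.89 between DT and PBS, not called by edgeR, with Col3a1 called by DESeq2 (adjusted p = 0.0399). No marker of these lists was at 0 in every sample. The part of keratinocyte or stromal content in the split of the guidance genes was not tested.

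**Figure D4:**
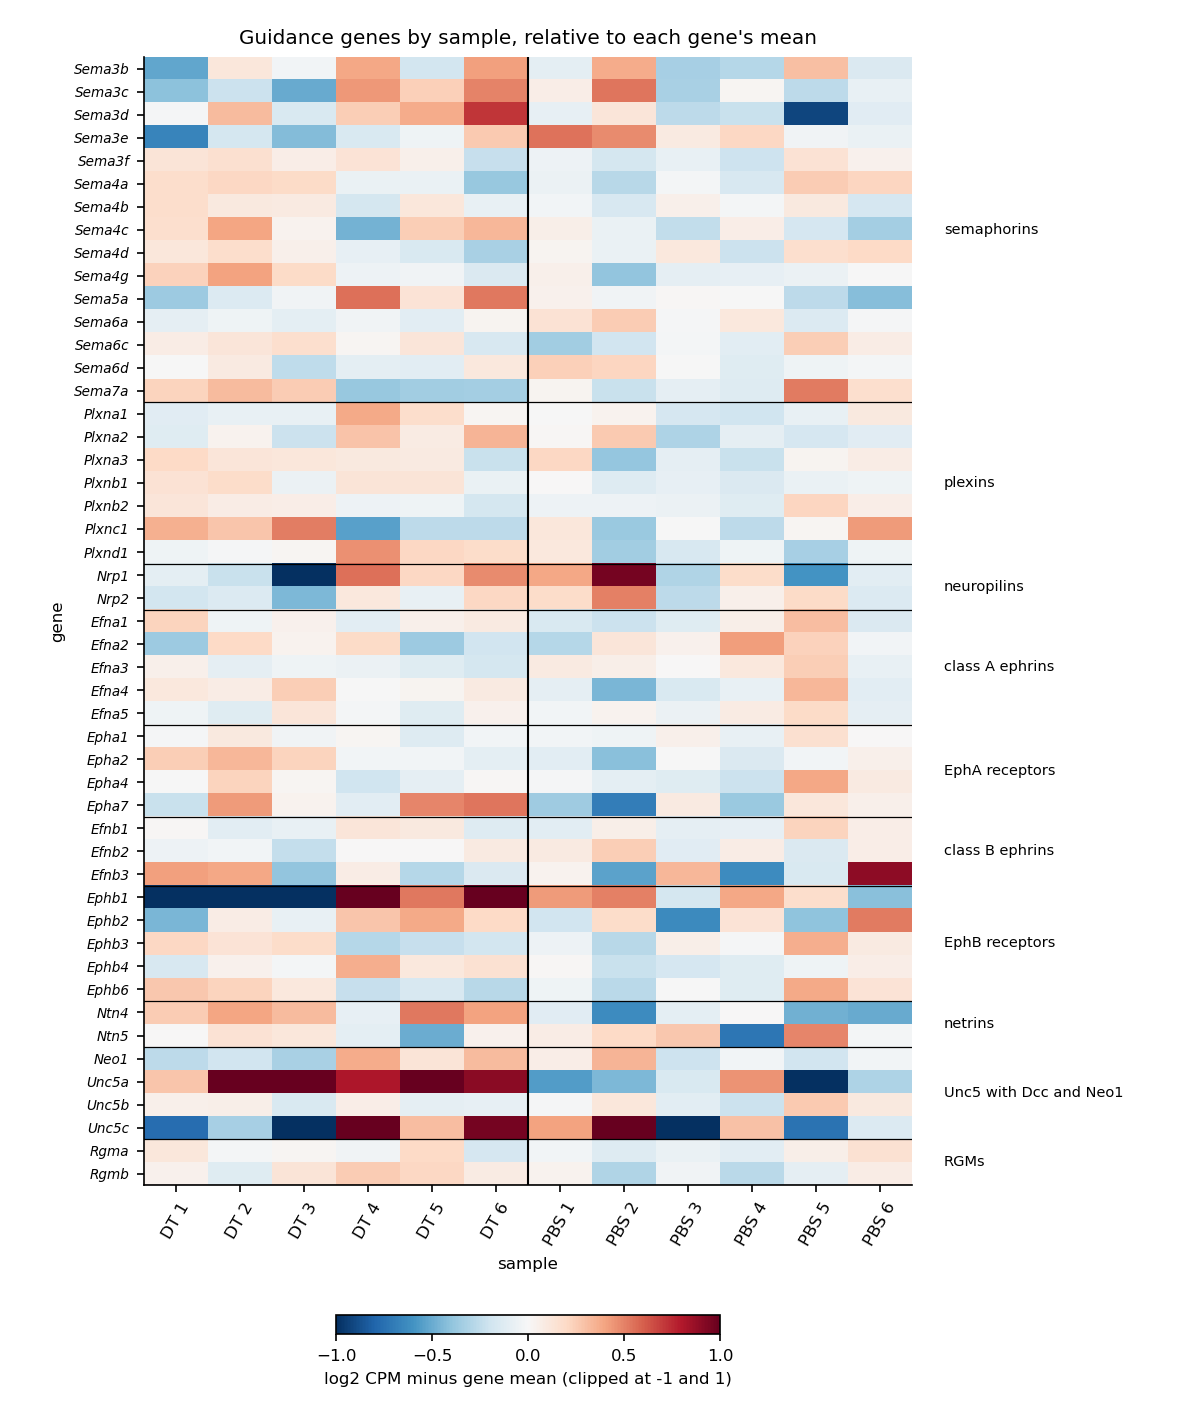
Map of the 49 tested guidance genes by sample, coloured by the deviation of log2 CPM from each gene's mean over the 12 samples, with rows grouped by family and DT samples left of PBS samples. In the 14 and 10 genes of the split, DT 4 to DT 6 all lie above or all below DT 1 to DT 3. In some of these, such as Sema3e and Plxna3, samples of both sets lie on the same side of the gene's mean. Unc5a is above its mean in every DT sample.

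Within the sides of this component the comparison of DT with PBS gave different counts. Among the 7 samples DT 4, DT 5, DT 6 and PBS 1 to PBS 4, 5 of 50 members were called higher in DT. They were Unc5a, Sema3d, Sema5a, Rgmb and Ephb4. In the same fit 7.75% of all genes were called and 2.75% were called higher. In that set Sema3d had a log2 fold change of 0.57 (adjusted p = 0.0150), Sema5a 0.41 (adjusted p = 0.0169), Rgmb 0.32 (adjusted p = 0.0432), Ephb4 0.34 (adjusted p = 0.0247) and Unc5a 1.09 (adjusted p = 0.0103), all by edgeR. Among the 5 samples DT 1, DT 2, DT 3, PBS 5 and PBS 6, 0 of 49 members were called by edgeR, where 0.0206% of all genes were; at an unadjusted p under 0.05 there were 10 of 49, against 14.4% of all genes. The difference between the sets was not tested. The sets were chosen by a component computed from the same counts, so calls within them describe those samples. Sema5a and Ephb4 were among the 14 members in which DT 4 to DT 6 lay above DT 1 to DT 3. In the set of 5 samples Ephb4 had a log2 fold change of -0.056. With the component as a covariate over all 12 samples, 6 of 49 members were called, where 9.31% of all genes were: Unc5a, Ntn4, Sema3d, Sema5a and Epha2 were higher in DT and Sema3e was lower. A covariate computed from the same counts can take up part of the treatment difference or of the residual spread, so these calls describe the libraries under that fit. Scaling by library size alone called 4 members, Unc5a, Ntn4, Plxnb1 and Epha2, where 3.89% of all genes were called.

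Genes that work with these families were also read from a list of 76 partners, of which 67 entered the test. They hold adaptors, exchange factors, kinases, cytoskeletal effectors and co-receptors. By edgeR 2 of 67 passed the test, against 1.30% of all genes, and the median log2 fold change of the list was 0.01, with 35 of 67 above 0. Nck2, an adaptor that links Eph receptors and other kinases to the actin cytoskeleton, fell: it had 54.0, 54.5, 53.4, 46.6, 43.1 and 51.1 CPM in DT 1 to DT 6, against 55.4, 61.0, 65.3, 62.7, 69.9 and 61.6 CPM in PBS 1 to PBS 6. The groups did not overlap, and the log2 fold change was -0.31 (SE 0.07, adjusted p = 0.0386). Inppl1, which encodes the lipid phosphatase SHIP2 that binds EphA2, rose to 17.2 ± 0.820 CPM in DT, against 14.3 ± 1.03 CPM in PBS (SD, n = 6 each), with a log2 fold change of 0.27 and an adjusted p of 0.0441. With 1 sample left out, Nck2 still passed without DT 1, DT 2 or PBS 1 and otherwise had an adjusted p of up to 0.0956, and Inppl1 still passed without DT 6 or PBS 3 and otherwise had one of up to 0.115. Nck2 also missed the threshold with upper quartile scaling (adjusted p = 0.0534) and library size alone (0.0568), and Inppl1 with no filter on low counts (0.0688). Among the 5 samples below 0 on the first component neither passed (0.137 for Nck2, 0.140 for Inppl1), and among the 7 above 0 Nck2 passed (0.00879) and Inppl1 did not (0.140). Dpysl5, which encodes the semaphorin effector CRMP5, had a log2 fold change of -0.62 with an adjusted p of 0.0799 by edgeR and 0.0151 by DESeq2.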

How the data were processed

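RNA of dispase-separated tongue epithelium of 6 DT and 6 PBS samples was made into libraries with a stranded mRNA kit, per the labels' protocols. The submitters' processing notes name cutadapt 2.10, TopHat2 2.1.1, HTSeq 2.01, DESeq2 1.36.0 and GRCm39. The authors deposited raw counts per gene, used here, beside a normalized signal, which equalled the counts divided by DESeq2 size factors within 1e-06% in all 12 samples. Genes with blank counts (6250 of 55414) were left out. Counts were tested with edgeR 4.0.16 (R 4.3.3, filterByExpr with a minimum count of 10, TMM scaling, quasi-likelihood test, two-sided, Benjamini-Hochberg threshold 0.05), and DESeq2 1.42.0 was an alternative; both were tested on simulated data. CPM are TMM-scaled. Coding lengths are the longest coding sequence per gene in GENCODE M21. Floors of 3 counts and intervals cover counting or sample error only. Replicate counts differed by more than sampling noise (chi-square per degree of freedom 6.87 to 62.0). In each family the 3 members of highest CPM and the 2 of smallest p were named, with members called by either tool, and partners called or among the 3 of smallest p; Sema3c, Sema4c, Sema5a and Ephb1 were singled out after their values were seen, as were the genes of the split. The members and lists were chosen with earlier results of these data known. Alternatives covered scaling, the filter, the tool, each sample left out, a replicate block, and the sides or score of the first component.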

Additional observations from a re-analysis of the deposited data

Results flagged for a closer look

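In 4 of 106 groups of 6 values examined, 1 sample stood apart from the rest by more than Dixon's 95% critical value of 0.625; chance gives about 1 in 20 such groups. Sema3f was at 101.2 CPM in DT 6, with the other DT samples at 123.2 to 132.8 CPM. Plxna3 was at 21.54 CPM in DT 6, with the other DT samples at 26.85 to 28.88 CPM. Sema4g was at 13.68 CPM in PBS 2, with the other PBS samples at 16.86 to 18.64 CPM. Among the partner genes, Inppl1 was at 16.25 CPM in PBS 3, with the other PBS samples at 13.45 to 14.23 CPM.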

How the results depend on the processing

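The count of genes called over the whole table, 185, became 553 with library size alone, 567 with DESeq2, 8 with the replicate number as a block, 3 and 1120 within the samples below and above 0 on the first component, 1325 with the component as covariate, and 46 to 263 with 1 sample left out. Of the 185, 63 were higher in DT and 122 lower, against 81 and 88 with upper quartile scaling and 484 and 69 with library size alone. The number of guidance genes called, 0, became 4 with library size alone, 1 without the filter, 1 with DESeq2, 5 within the samples above 0, 6 with the covariate and 0 to 1 with 1 sample left out. The number of partners called, 2, became 3 with DESeq2, 1 with upper quartile scaling and 0 with the replicate block. It became 0 and 4 within the samples below and above 0, 8 with the covariate, and 0 to 1 with 1 sample left out. Library size alone called Inppl1 and Mst1r, and the fit without the filter called Dpysl5 and Nck2. The cause of these differences was not tested. Same-numbered DT and PBS samples deviated with correlations of -0.33 to 0.11, and 0 of 6 correlated best with their own number, so the numbers were not read as pairs. Over 43 genes followed through 21 alternatives, 903 values were compared; 786 kept direction and side of the threshold, 23 gained a call, 27 lost one and 67 changed sign. None of the genes that changed sign had been called over all 12 samples. With library size alone, log2 fold changes turned to 0.10 for Plxnb2, 0.088 for Epha4, 0.082 for Efnb1, 0.081 for Epha1, 0.078 for Ephb6, 0.060 for Efna5, 0.053 for Unc5b, 0.044 for Ephb3, 0.031 for Efnb3, 0.029 for Efnb2 and 0.013 for Nrp1. Within the samples below 0 they turned to -1.15 for Ephb1, -0.36 for Unc5c, -0.28 for Ephb2, -0.20 for Sema3c, -0.15 for Neo1, -0.10 for Plxna1, -0.067 for Rgma, -0.056 for Ephb4, -0.038 for Sema4a and -0.012 for Efna1. Within those above 0 they turned to 0.088 for Efnb1, 0.062 for Nrp1, 0.036 for Efnb3, 0.025 for Epha4, 0.018 for Unc5b, -0.036 for Sema4a and -0.0022 for Sema4b. The covariate gave -0.023 for Sema4a, upper quartile scaling 0.017 for Plxnb2 and 0.0017 for Epha4, the replicate block -0.12 for Ephb1, and no filter 0.0027 for Plxnb2. With 1 sample left out, log2 fold changes spanned 0 for Sema3c (-0.057 to 0.18), Sema4a (-0.023 to 0.090), Plxnb2 (-0.024 to 0.042), Nrp1 (-0.22 to 0.12), Epha1 (-0.048 to 0.0062), Epha4 (-0.069 to 0.068), Efnb1 (-0.052 to 0.018), Efnb3 (-0.18 to 0.18), Ephb1 (-0.19 to 0.31), Ephb3 (-0.11 to 0.018), Ephb6 (-0.077 to 0.059), Neo1 (-0.043 to 0.11) and Unc5c (-0.13 to 0.50). The block gave Nck2 and Inppl1 adjusted p-values of 0.205 and 0.193. Depth limits what can be seen in the 19 guidance genes that the filter removed.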
